A study of Homo sapiens with 2 samples.

Results

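The collapsin response mediator proteins (CRMPs) are encoded by CRMP1, DPYSL2, DPYSL3, DPYSL4 and DPYSL5, and binding of the transcription factor OTX2 was examined over these 5 of 19881 protein-coding genes. A peak was counted for a gene when it shared at least 1 bp with the GENCODE gene record in GRCh38 extended by 30 kb on each side, which gave 66 of the 137412 peaks in the list. OTX2 binding was measured by ChIP-Seq, in which crosslinked chromatin is sheared and an antibody draws out the fragments held by a protein for sequencing. The cells were D283, an established medulloblastoma line, grown as tumorspheres in a neural proliferation medium with epidermal and basic fibroblast growth factors, untreated and described as the OTX2+ control. There was 1 library made with a rabbit OTX2 antibody and 1 input library of D283 tumorspheres, and no second line and no OTX2-depleted sample entered the peak list. No value below therefore has a replicate error, no difference between genes was tested, and a peak over a gene does not show that the gene responds to OTX2.

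CRMPs are cytosolic phosphoproteins of developing neurons, related in sequence to the pyrimidine-degrading enzyme dihydropyrimidinase but without its catalytic activity. The family takes its name from a relay of semaphorin 3A. This repulsive guidance cue acts through neuropilin and plexin-A receptors and collapses the growth cone. CRMPs bind tubulin and other cytoskeletal proteins. The kinases CDK5 and GSK3B phosphorylate DPYSL2 downstream of semaphorin 3A and so weaken its hold on microtubules. DPYSL2, also called CRMP2, promotes axon growth, DPYSL3 (CRMP4) is abundant in newborn and migrating neurons and bundles actin, DPYSL5 (CRMP5) opposes the neurite outgrowth driven by CRMP2, and DPYSL4 is also called CRMP3. CRMP1 takes part in the response of cortical neurons to semaphorin 3A.

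The peaks were very unevenly spread over the family. DPYSL3 held 41 peaks, or 62.1% of the 66, DPYSL2 held 10, DPYSL5 held 9, CRMP1 held 6 and DPYSL4 held 0. Peak height is given as the number of ChIP fragments that cover the summit, read back from the deposited pileup, in which 1 fragment adds 0.735. This step is 2 times the ratio of input to ChIP fragments, and 100% of the pileups were whole multiples of it within 0.006, with 49.8% at odd multiples, so no smaller step was in use. All 137412 peaks had a median of 53 fragments (quartiles 34 and 95, range 15 to 461), a median fold enrichment over the local input of 6.1 and a median length of 440 bp. The 66 peaks of the CRMP genes had a median of 55 fragments and a median fold enrichment of 6.54, and 34 of them stood above the median height of all peaks. The members thus differed among themselves in the number of peaks, while the median height of the peaks lay close to that of all peaks.

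The DNA just before 4 of the transcript starts is shown here because the starts differ in whether a peak lies over them, although all are rich in CG dinucleotides. Each sequence is the 250 bases upstream of a RefSeq start in GRCh38.p14, on the strand of the gene, in lower case with each CG dinucleotide in capitals. The first, of the upstream start of DPYSL3 (chr5:147510069-147510318, minus strand), holds 25 CG dinucleotides and lies wholly under a peak of 27 fragments. The DPYSL5 sequence (chr2:26847882-26848131, plus strand, 34 CG dinucleotides), the CRMP1 sequence of the canonical transcript (chr4:5893087-5893336, minus strand, 37) and the DPYSL4 sequence (chr10:132186698-132186947, plus strand, 31) lie under no peak.
DPYSL3 upstream start: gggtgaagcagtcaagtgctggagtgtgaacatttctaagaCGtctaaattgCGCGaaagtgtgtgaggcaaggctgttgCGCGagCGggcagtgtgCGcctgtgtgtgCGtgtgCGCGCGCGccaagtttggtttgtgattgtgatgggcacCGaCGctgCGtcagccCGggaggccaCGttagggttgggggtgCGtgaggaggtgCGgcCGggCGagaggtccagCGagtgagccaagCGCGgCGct
DPYSL5 canonical start: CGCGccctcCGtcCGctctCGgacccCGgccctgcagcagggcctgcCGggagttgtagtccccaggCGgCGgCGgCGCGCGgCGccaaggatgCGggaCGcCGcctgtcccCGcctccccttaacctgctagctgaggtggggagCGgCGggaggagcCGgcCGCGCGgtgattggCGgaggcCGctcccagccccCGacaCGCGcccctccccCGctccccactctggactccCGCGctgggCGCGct
CRMP1 canonical start: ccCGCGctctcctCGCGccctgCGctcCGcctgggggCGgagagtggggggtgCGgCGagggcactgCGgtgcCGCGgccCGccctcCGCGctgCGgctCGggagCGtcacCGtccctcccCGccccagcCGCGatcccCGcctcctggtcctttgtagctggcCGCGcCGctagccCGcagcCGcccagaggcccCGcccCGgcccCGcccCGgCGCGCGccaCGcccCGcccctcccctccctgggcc
DPYSL4 canonical start: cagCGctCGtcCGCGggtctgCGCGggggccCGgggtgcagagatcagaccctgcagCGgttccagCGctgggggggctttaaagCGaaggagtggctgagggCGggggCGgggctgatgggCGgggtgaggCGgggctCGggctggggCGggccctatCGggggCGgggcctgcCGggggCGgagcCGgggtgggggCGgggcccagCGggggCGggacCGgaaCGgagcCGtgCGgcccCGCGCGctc

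The RefSeq table held 9 promoter windows of 4 members, each of 300 bases from 250 before to 50 after the start. It held none of DPYSL2, whose inner coding starts at 26577843 and 26578405 lay under a peak of 42 fragments. The counts of windows below therefore leave DPYSL2 out. The 9 windows are also not all separate promoters, since CRMP1 gave the most of them and those of DPYSL5 overlap each other. A peak lay over 2 of the 9, both of DPYSL3, where all 300 bases were covered, against 30% of 35116 windows of all genes. The G and C content of the 9 windows ran from 64.3% in both DPYSL3 windows to 83.7% in the canonical CRMP1 window. In all windows the median was 58.7%, with 63.3% in windows with a peak and 55% in windows without one, and the 7 CRMP windows without a peak were richer in G and C than 70.5% to 99.5% of all windows. The OTX2 motifs TAATCC and TAATCT, searched on both strands, were in 0 of the 9 windows, beside 12.8% of all windows, 13.3% of those with a peak and 12.5% of those without. This says only that these letters do not occur in these windows, and both DPYSL3 windows under a peak are among them.

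**Figure D1:**
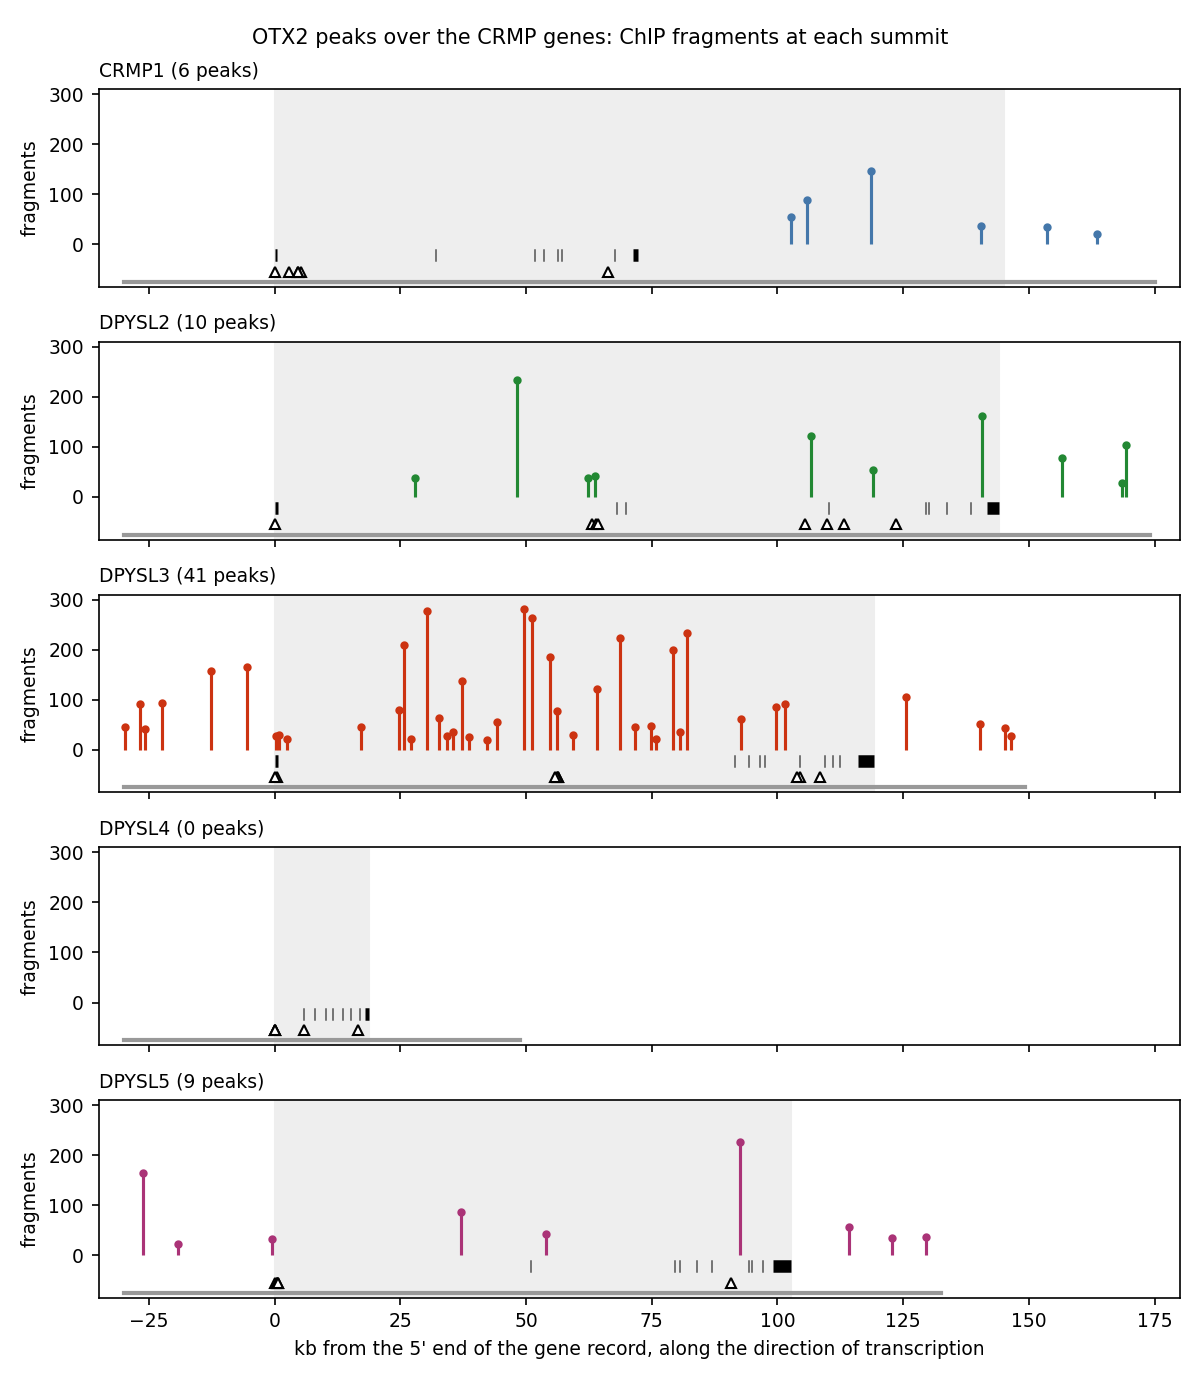
OTX2 peaks over the 5 CRMP genes, with the number of ChIP fragments at each summit (vertical axis) against kb from the 5′ end of the gene record in the direction of transcription (horizontal axis). Each stem is 1 peak, the shaded field is the gene record, black ticks are exons of the canonical transcript, triangles are transcript starts and the grey bar is the record with its 30 kb flanks. DPYSL3 carries 41 peaks, most of them in intron 1 and the flanks, CRMP1 carries 6 that all lie beyond its canonical exons, and DPYSL4 carries 0.

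Of the 5 genes, 4 had a peak in the extended record, as did 90.8% of all protein-coding genes. The same 4 had a peak inside the record itself, beside 69.5% of all genes. A peak near any transcript start, in a window that begins 5 kb before the start and ends 2 kb after it, was present for DPYSL2, DPYSL3 and DPYSL5, 3 of 5, beside 66.6% of all genes. When only the 5′ end of the record was used, DPYSL3 and DPYSL5 remained, 2 of 5, beside 57.2%. With 5 genes none of these counts sets the family apart from the background.

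Since a longer record can hold more peaks, the counts were also set against the length of the extended record. DPYSL3 had 22.9 peaks per 100 kb, a density above that of 99.7% of protein-coding genes, and 61 genes, DPYSL3 included, reached it. DPYSL5 had 5.53 and DPYSL2 had 4.9, both close to the median of 5.1 over all protein-coding genes (quartiles 2.61 and 8.19). The DPYSL5 density rested on the flanks, since it was 3.26 with flanks of 10 kb and 2.92 for the record alone. CRMP1 had 2.93, above 28.3% of genes. DPYSL4 had 0 peaks over 78.8 kb and shared this with the 9.19% of genes that had no peak in the extended record. The density over the 5 records together was 7.95 peaks per 100 kb, and it was 3.84 without DPYSL3.

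**Figure D2:**
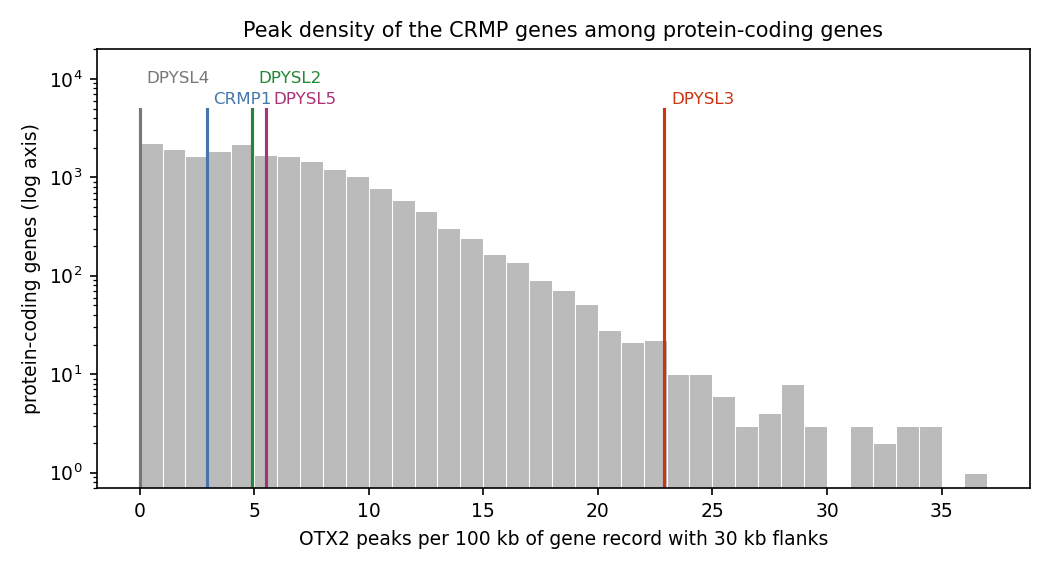
Number of protein-coding genes (vertical axis, log scale) by OTX2 peaks per 100 kb of gene record with 30 kb flanks (horizontal axis, bins of 1), with a vertical line for each CRMP gene. DPYSL3 at 22.9 lies in the far right tail, DPYSL2 at 4.9 and DPYSL5 at 5.53 lie in the bulk, CRMP1 lies at 2.93 and DPYSL4 at 0.

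DPYSL3 (ENSG00000113657, chr5:147390808-147510068, minus strand, 119 kb) had 31 peaks inside its record, 6 in the upstream flank and 4 in the downstream flank. The peaks covered 29413 bp, which is 16.4% of the extended record. Their heights ran from 20 to 281 fragments with a median of 61, and 22 of the 41 were above the median height of all peaks. The fold enrichment ran from 2.48 to 26.7 with a median of 7.39. Tall and low peaks stood side by side, with 7 of at least 200 fragments and 10 of at most 30. Neighbouring summits were a median of 3.08 kb apart, and the longest distance between 2 of them was 23.9 kb. Each called peak was counted by itself, although some ended within 1 kb of the next, the closest 292 bp from it. Whether such neighbours are parts of a broader domain was not tested.

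Intron 1 of the canonical DPYSL3 transcript (chr5:147424964-147509477, 84.5 kb) held most of this binding. Counting also the summits within it that lay near a transcript start or over an exon of another transcript, it held 27, or 31.9 per 100 kb. This was more than 98.9% of 5541 first introns of at least 10 kb, of which 63 reached this density. The 4 tallest peaks of the gene lay in it. The tallest, at chr5:147460239-147460991, had 281 fragments (95% Poisson interval 249 to 316) and a fold enrichment of 14.8. The next, at chr5:147478784-147481773, had 278 fragments (246 to 313), a fold enrichment of 20.5 and a length of 2990 bp, longer than 99.9% of all peaks. The peaks at chr5:147458417-147459503 and chr5:147427482-147429010 had 264 and 233 fragments with fold enrichments of 21.7 and 17.2. The highest fold enrichment of the gene, 26.7, was that of the peak at chr5:147430357-147432372, with 200 fragments over 2016 bp. In all, 4 DPYSL3 peaks were at least 1500 bp long, a length that 1.92% of all peaks reached, and all 4 lay in intron 1.

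DPYSL3 is transcribed from an upstream start and, within intron 1, from a cluster of inner starts, which give proteins with different amino ends. The peaks at the upstream start were low, and the one at the inner starts was of middle height. At the upstream start (147510068) the peak chr5:147509773-147511014 had 27 fragments (17.8 to 39.3), a fold enrichment of 3.48 and its summit 182 bp downstream of the start. A second low peak, chr5:147508735-147509274, had 30 fragments (20.2 to 42.8) at a fold enrichment of 4.62, and another, chr5:147507566-147507912, had 21 (13 to 32.1) at 2.78. At the inner starts the peak chr5:147453142-147454304 had 78 fragments (61.7 to 97.3), a fold enrichment of 9.73 and its summit 14 bp downstream of the coding start at 147453959. Its interval did not overlap those of the peaks at the upstream start. These intervals cover counting error in 1 library only, and the difference was not tested.

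Just before the inner starts the DPYSL3 signal was higher still. The peak chr5:147454924-147455965 had 186 fragments (160 to 215) at a fold enrichment of 23.9, with its summit 1051 bp upstream of the coding start at 147454266. The tallest and the third tallest peak of the gene followed 6247 and 4608 bp upstream of that start. Over the 55.3 kb between the inner coding start and the next start upstream there were 16 summits more than 1 kb from either, with 20 to 281 fragments and a median of 59, and 9 of the 16 were lower than the peak at the inner starts. Over the 29.3 kb of intron 1 downstream of the inner starts there were 9, with a median of 48 and a maximum of 233 fragments. The 34.2 kb of the gene after intron 1 had 3 summits. The peaks chr5:147408269-147408722 and chr5:147410048-147410528, with 91 and 86 fragments, lay upstream of the DPYSL3 starts of a transcript subject to nonsense-mediated decay and of one with a retained intron, and the third peak had 61 fragments.

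Of the remaining DPYSL3 peaks, 1 lay in intron 1 of the canonical transcript but over an exon of another DPYSL3 transcript, at chr5:147472649-147473099, with 137 fragments. The upstream flank of DPYSL3 held 6 peaks of 42 to 166 fragments with a median of 92.5. The strongest of them, chr5:147515204-147515978, had 166 fragments (142 to 193), a fold enrichment of 21.8 and its summit 5448 bp upstream of the upstream start, and another, with its summit 12612 bp upstream, had 157 fragments and a fold enrichment of 22.3. The outermost, chr5:147539680-147540320 with 45 fragments, crossed the edge of the 30 kb flank. The next one, chr5:147540902-147541568, lay 834 bp outside the flank and was not counted, although with 349 fragments and a fold enrichment of 32.2 it was higher than any of the 41. The 4 peaks of the downstream flank, of 28 to 105 fragments, all had their summit inside STK32A, a kinase gene on the other strand. The tallest of these 4, chr5:147384326-147384871, had its summit 1245 bp past a start of STK32A.

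The local input behind these fold enrichments is the value implied by pileup and fold enrichment, on the scale of the pileup. Its median over the DPYSL3 peaks was 5.15, near the median of 5 over all peaks, and it reached 13 at the tallest peak and 16 at the peak chr5:147483875-147484576 (209 fragments, fold enrichment 9.1), above 97.3% and 99% of peaks. The region around DPYSL3 had 7.2 peaks per 100 kb over 1 Mb on either side of the extended record, beside 5.01 on chromosome 5. The same measure gave 5.9 around DPYSL2, beside 5.27 on chromosome 8, and 5.85 around DPYSL5, beside 4.79 on chromosome 2. Around CRMP1 and DPYSL4 it was below that of the chromosome. With a fold enrichment of at least 5, 26 of the 41 DPYSL3 peaks were left, and their density of 14.5 per 100 kb was above that of 99.6% of genes counted in the same way.

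**Figure D3:**
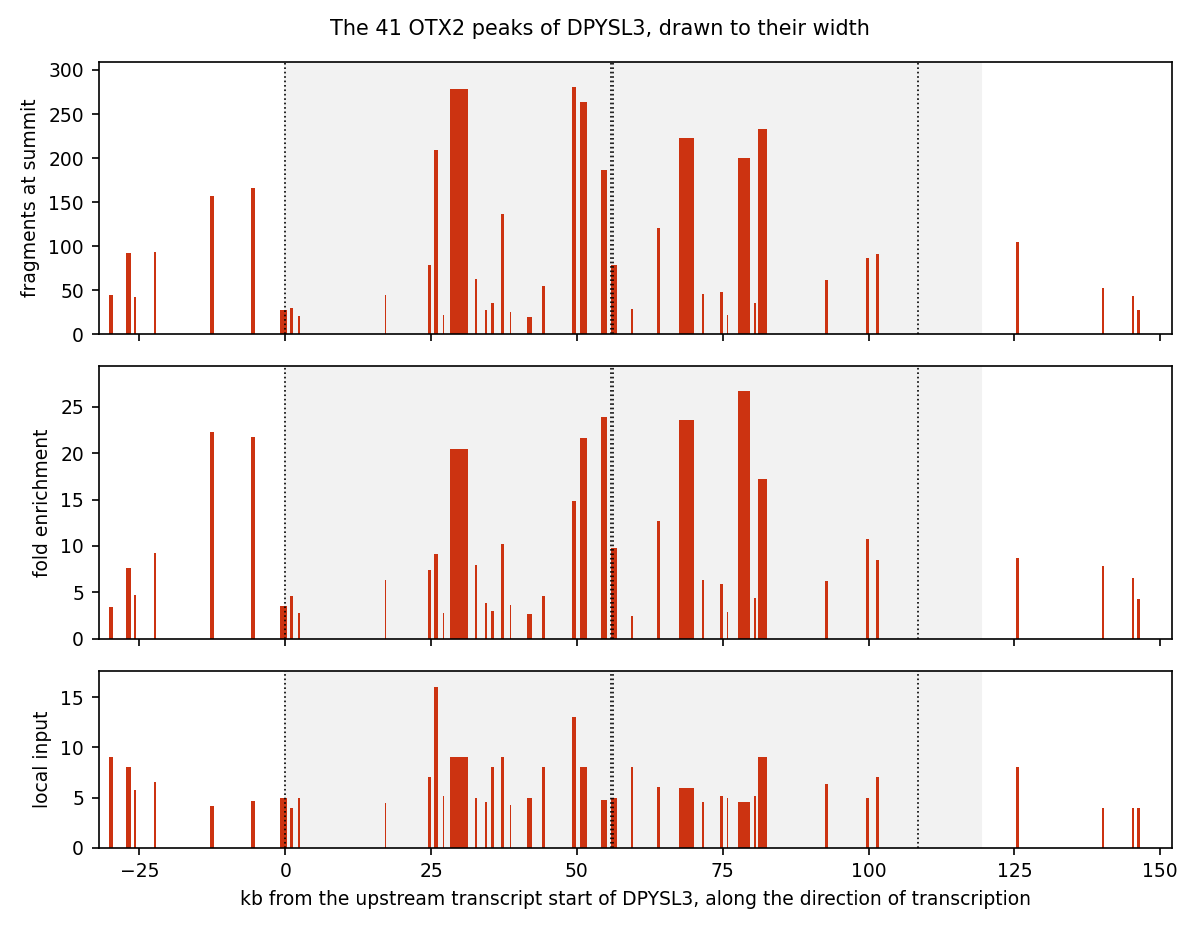
The 41 DPYSL3 peaks drawn to their width against kb from the upstream transcript start in the direction of transcription, with fragments at the summit (top), fold enrichment over local input (middle) and local input on the pileup scale (bottom). The shaded field is the gene record and dotted lines mark the coding transcript starts. The peak at the upstream start has 27 fragments and that at the inner starts 78, while the tallest peaks, up to 281 fragments, lie between and beyond them.

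DPYSL5 (ENSG00000157851, chr2:26847747-26950351, plus strand, 103 kb) had 9 peaks of 22 to 227 fragments with a median of 43, and 3 of them lay inside the record. Its start carried a low peak, as the upstream start of DPYSL3 did. This peak, chr2:26847079-26847415, had 33 fragments (22.7 to 46.3) at a fold enrichment of 3.57, with its summit 541 bp upstream of the first annotated start and 926 bp upstream of the canonical one, before the promoter sequence printed above. The 5 coding starts of DPYSL5 lie close together and share this peak. The tallest peak, chr2:26939974-26940500, had 227 fragments (198 to 259) at a fold enrichment of 15.3. Its summit was in intron 9, 1777 bp past the start of a DPYSL5 transcript with a retained intron. The local input there was 10, above 92.7% of peaks.

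The second tallest DPYSL5 peak, chr2:26821101-26821971 in the upstream flank, had 165 fragments (141 to 192) and the highest fold of the gene, 17.5. Intron 1 (50.2 kb), where DPYSL3 had most of its peaks, held 1 peak in DPYSL5, chr2:26884474-26884942, with 87 fragments (69.7 to 107) at a fold enrichment of 9.28. Its density of 1.99 per 100 kb was above that of 30.1% of first introns of at least 10 kb. Intron 2 held a peak of 43 fragments. The downstream flank held 3 peaks of 35, 36 and 57 fragments, of which the one of 35 lay at the start of MAPRE3, which encodes a microtubule end-binding protein, with its summit 107 bp upstream of it. Just outside the 30 kb flanks of DPYSL5 lay peaks of 53 and 41 fragments, 619 and 2074 bp from the edges.

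DPYSL2 (ENSG00000092964, chr8:26514031-26658178, plus strand, 144 kb) had 10 peaks of 28 to 234 fragments with a median of 65, and 7 of them lay inside the record. As in DPYSL3 there are an upstream start, used by the canonical transcript, and a group of inner coding starts far inside intron 1. No peak lay near the upstream start of DPYSL2. The nearest was 27.8 kb away, farther than for 85.9% of genes, within a stretch of 63.7 kb without a peak. The inner coding starts at 26577062, 26577843 and 26578405 had 2 peaks. The peak chr8:26577642-26578573, with 42 fragments (30.3 to 56.8) at a fold enrichment of 6.38, had its summit 21 bp upstream of the middle start. The peak chr8:26576150-26576573, with 37 fragments (26.1 to 51) at a fold enrichment of 5.66, had its summit 737 bp upstream of the first. Counting these, intron 1 of DPYSL2 (67.3 kb) held 4 summits, or 5.94 per 100 kb, above 49.9% of first introns of at least 10 kb.

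The strongest peak of DPYSL2 lay in intron 1 as well, at chr8:26561881-26562744, 14791 bp upstream of the inner starts. It had 234 fragments (205 to 266) at a fold enrichment of 34.7, the highest of the 66 peaks and above that of 99.3% of all peaks, with its local input of 3.99 at the floor of the list. The second tallest, chr8:26654286-26654876 in intron 13 near the end of the gene, had 161 fragments (137 to 188) at a fold enrichment of 23.9. The third, chr8:26620493-26620931 in intron 3, had 121 fragments (100 to 145) at a fold enrichment of 8.18 over a local input of 10, and its summit was 1227 bp past the start of a DPYSL2 transcript with no defined coding sequence. A peak of 53 fragments in intron 7 also fell within the window of a transcript start, 4525 bp upstream of it. The downstream flank held peaks of 77, 28 and 103 fragments, and the upstream flank held 0. The peaks just outside the flanks of DPYSL2 both had 33 fragments. PNMA2, a neighbour that starts beside DPYSL2 on the other strand, had 0 peaks within 1 kb of its starts.

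CRMP1 (ENSG00000072832, chr4:5748084-5893086, minus strand, 145 kb) had 6 peaks of 21 to 146 fragments with a median of 46, and none was near any of its 6 transcript starts. From the canonical start (5893086) the nearest peak was 102 kb away, farther than for 96.8% of protein-coding genes, whose median distance was 1.48 kb. The canonical CRMP1 transcript (chr4:5820764-5893086, 72.3 kb) held 0 peaks. The 4 peaks counted inside the record lay beyond it, in the stretch that only 1 transcript reaches, a form with no defined coding sequence whose last exon (chr4:5748084-5748312) lies far from the one before it (chr4:5825494-5825659).

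All 6 summits counted for CRMP1 lay inside EVC, a gene of the ciliary Hedgehog pathway that runs along the opposite strand (chr4:5711201-5814305). The tallest, chr4:5774214-5774856, had 146 fragments (123 to 172) at a fold enrichment of 21.7, and the next in height, chr4:5786989-5787503 and chr4:5790268-5790631, had 88 (70.6 to 108) and 55 (41.4 to 71.6) fragments. The peak chr4:5752493-5752781, of 37 fragments, had its summit 41 bp upstream of a start of EVC. Past the last of them no peak followed for 460 kb, from 5790631 to 6250634, and 203 of 137306 distances between neighbouring peaks were at least as long. With the RefSeq record, which ends with the canonical transcript, CRMP1 had 0 peaks also with the 30 kb flanks. The peak chr4:5790268-5790631, of 55 fragments, lay just outside that flank. On the EVC side a peak of 106 fragments lay 4542 bp outside the flank counted here. The surrounding 1 Mb on either side had 2.85 peaks per 100 kb, beside 4.83 on chromosome 4.

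DPYSL4 (ENSG00000151640, chr10:132186948-132205759, plus strand, 18.8 kb) is the shortest of the 5 genes and had 0 peaks in its record, its flanks or near any of its 5 starts. The nearest peak, chr10:132244943-132245545 with 130 fragments and a fold enrichment of 19.3, lay 58 kb downstream of its start and 9184 bp outside the flank. On the other side the last peak ended at 131945412, so that 299530 bp around DPYSL4 had no peak, and 432 of 137306 distances between neighbouring peaks were at least as long. The starts of its neighbours JAKMIP3 and JAKMIP3-AS1 in this stretch had 0 peaks as well. Over 1 Mb on either side there were 6 and 9 peaks, or 0.75 per 100 kb, beside 4.76 on chromosome 10. In the absence of a peak, binding below the calling threshold was not detectable at this depth.

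By summit, 6 of the 66 CRMP peaks, or 9.09%, lay within 1 kb of a start of their own gene. For all peaks the share was 10.7%, but it counts starts of any protein-coding gene and is the wider measure. It would also take in the CRMP1 peak at the EVC start and the DPYSL5 peak at the MAPRE3 start. Away from starts of the gene itself, intron 1 held 27 (24 of them of DPYSL3), later introns 8 and the flanks 20. The part of CRMP1 beyond its canonical transcript held 4, and an exon 1. The 6 peaks at starts had 27, 30, 33, 37, 42 and 78 fragments, a median of 35, and 5 of the 6 were below the median of all peaks. The peaks in intron 1 had a median of 55 fragments, those in later introns 88.5, those in the upstream flanks 92.5 and those in the downstream flanks 39.5. A lower height at starts was not limited to the CRMP genes, since the 14683 peaks of the list with a summit within 1 kb of a protein-coding transcript start had a median of 46 fragments and the other peaks 54. The 3 tallest peaks of DPYSL2, DPYSL3 and DPYSL5 were all more than 1 kb from a start of their gene.

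**Figure D4:**
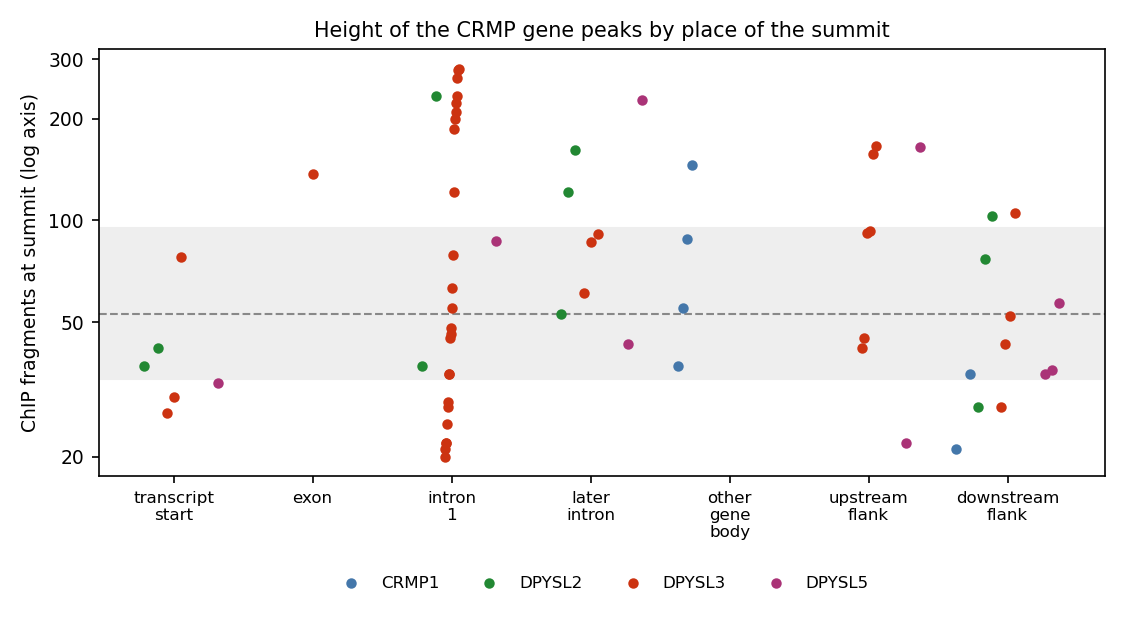
ChIP fragments at the summit (vertical axis, log scale) of the 66 CRMP gene peaks by place of the summit, with 1 point per peak coloured by gene. The dashed line is the median of all peaks (53) and the shaded band runs between their quartiles (34 and 95). Peaks at transcript starts have 27 to 78 fragments, while intron 1 spans 20 to 281.

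The genes around the CRMPs in semaphorin signalling were counted from a list of 31. A peak near any transcript start was present for 26 of them (83.9%, Wilson 95% interval 67.4% to 92.9%), beside 66.6% of all protein-coding genes and 3 of the 5 CRMP genes. At the 5′ end of the record alone it was present for 21 (67.7%), beside 57.2% of all genes, and since the list was chosen with earlier results of these data known, neither share sets it apart. All 4 listed ligands had one, SEMA3A, SEMA3B, SEMA3F and SEMA4D. Of the 7 receptors and co-receptors 4 had one (NRP1, NRP2, PLXNA2 and PLXNA4), and PLXNA1, PLXNA3 and the adhesion molecule L1CAM had none. Of the 9 kinases and kinase activators that act on CRMPs or beside them 8 had one, CDK5, its activator CDK5R1, GSK3A and GSK3B among them, and the exception was FES. All 3 of RAC1, RHOA and the exchange factor FARP2 had one, as did 7 of the 8 cytoskeletal proteins and binding partners, the exception being the neuronal tubulin gene TUBB3.

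In density of peaks DPYSL3 stood above every gene on this list. The 31 extended records held 0 to 48 peaks with a median of 9, and a median of 6.59 peaks per 100 kb. The densest was the receptor gene PLXNA2, which held more peaks than DPYSL3 (48) over a longer record and reached 17 per 100 kb, below the 22.9 of DPYSL3. DPYS, which encodes dihydropyrimidinase itself, had 16 peaks, 8.13 per 100 kb and a peak near its start, a density between those of DPYSL3 and the other 4 CRMP genes.

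The precision of these values rests on 61259377 ChIP and 22521186 input fragments kept after the removal of duplicates, and the Poisson intervals cover counting error only. Fold enrichments depend on the shallower input, and 26.4% of all peaks lay at the lowest local input the caller allowed.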

How the data were processed

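One OTX2 ChIP library and 1 input library of D283 tumorspheres were analysed from a single peak list in GRCh38. Per the labels and the study's methods, the authors used Bowtie2 2.2.4 for mapping and MACS2 2.1.0.20140616 for narrow peaks (q-value cutoff 0.05, 1 fragment kept per position) and masked blacklisted regions. The deposited pileup is a signal that counts the fragments over the summit on a scale set by MACS2, and was divided by 0.735 to give whole fragments. The deposited fold enrichment is the ratio of pileup plus 1 to local input plus 1. The deposited list also gives −log10 of the p-value and of the q-value for each peak.

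Gene positions came from GENCODE release 44, in an annotation placed on GRCh37 that records the original GRCh38 exon positions, so no coordinate was converted. A peak was placed by its summit, in the order transcript start (within 1 kb), exon, intron 1, later intron, other gene body and flank. Promoter sequences were those of RefSeq on GRCh38.p14, where 4 of the 5 genes matched and DPYSL2 did not. Motifs inside peaks were not analysed here. Exact Poisson 95% intervals were given for fragments and a Wilson interval for a share. With 1 library a group no test was made. Counting was tested on simulated peaks.

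The members and the pathway list were chosen with earlier results of these data known. For each member, every peak near a transcript start and the 3 tallest were named. Some further peaks were named for their height, fold enrichment, place or local input, chosen after seeing the data. The rest were given by count and range. Stricter peak thresholds, other flanks and windows and other placing rules were tried, and RefSeq records and leaving out DPYSL3 were added after seeing the data. Scripts ran in Python 3.11.15 with numpy 2.4.6, pandas 2.3.3 and scipy 1.17.1, and figures were drawn with matplotlib 3.10.9.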

Additional observations from a re-analysis of the deposited data

How the results depend on the processing

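No paired analysis was possible because each group had 1 library and no test was made. Leaving out DPYSL3, chosen after seeing the data, moved the density over the CRMP records from 7.95 to 3.84 peaks per 100 kb, and the peaks at transcript starts to 3, in exons to 0, in intron 1 to 3, in later introns to 5 and in flanks to 10. A fold enrichment of at least 5 left 3 peaks at transcript starts, 17 in intron 1 and 12 in flanks, with a median of 91.5 fragments and a median fold enrichment of 8.89, which follows from the selection. A −log10 q of at least 5 gave a median of 77.5 fragments, and placing by any overlap put 2 peaks in exons. The share of all genes with a peak near a start was 62.3% with that −log10 q, 50.7% with that fold enrichment, 65.9% for summits, 56.8% within 1 kb, 57.2% at the 5′ end of the record and 62.4% for coding transcripts, while the CRMP genes with one stayed at 3, or 2 for the 5′ end. The 66 peaks became 44 to 83 under other thresholds and flanks and 60 with RefSeq records, also chosen after seeing the data. CRMP1 had 10 peaks with 50 kb flanks and 0 with the RefSeq record, DPYSL4 had 1 with 50 kb flanks, and DPYSL5 had 4 with 10 kb flanks. No direction between the genes was tested. The single ChIP library and the shallower input limit single heights and fold enrichments.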
